A study of Mus musculus with 8 samples.

Results

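Genes encoding the Wnt ligands, their Frizzled and LRP receptors and their secreted regulators were examined in 8 Affymetrix arrays of mouse embryonic fibroblasts. Members were the probe sets annotated with exactly 1 gene symbol that was Wnt, Fzd, Sfrp, Dkk or Rspo followed by a number, or Lrp5, Lrp6, Frzb, Wif1 or Axin2. This rule used no expression value, though the members were chosen with earlier results of these data known. It gave 87 probe sets of 46 genes, out of 34945 probe sets with exactly 1 symbol, of 18193 genes, on the array. A probe set is a group of short oligonucleotides that together measure 1 transcript. Of the 46 genes, 19 had 1 probe set and 27 had several.

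The fibroblasts came from C57BL/6 mice and carried no Stat5 of their own, and 1 of 2 STAT5 mutants had been introduced into all of them with a retrovirus. STAT5 proteins enter the nucleus and bind DNA once kinases at the growth hormone receptor have phosphorylated them on a tyrosine. The EA mutant was labelled as a change from EE to AA in a binding domain, and the YF mutant as Y694F, a replacement of a tyrosine. The 4 groups were EA cells without stimulation, EA cells with growth hormone for 120 minutes, YF cells without stimulation and YF cells with growth hormone for 120 minutes, with 2 arrays in each. Both arrays of each group are described as biological duplicates. The labels give no cells with wild-type STAT5 and no cells without an introduced mutant, so every comparison is between mutants or between treatments. They also do not say whether a mutant was introduced more than once, so the mutant and the infected cell population that carries it cannot be told apart.

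Wnt proteins are lipid-modified secreted ligands that bind Frizzled receptors. Together with the co-receptors Lrp5 and Lrp6 they stabilise beta-catenin, and through Frizzled with other receptors they act on cell polarity and calcium. Secreted frizzled-related proteins and Wif1 bind Wnts outside the cell. Dickkopf proteins such as Dkk2 bind the LRP co-receptors, and R-spondins raise the amount of Frizzled at the membrane. Fibroblasts are known as both a source and a target of Wnt proteins, and Wnt5a and the frizzled-related proteins are commonly found in mesenchymal cells.

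Values are log2 expression per probe set, so a difference of 1 is a doubling. Array medians lay between 2.85 and 2.94. Of all tested probe sets 53.4% had group means below 4 in all 4 groups, and values below 4 are called low here, since detection calls were not used. EA arrays (-66.4 to -61.4) and YF arrays (62.4 to 64.9) separated on the leading principal component, which held 69.9% of the variance. On the next component, replicate 1 of YF with hormone had a score of 55.8, against -32.6 to 3.28 for the remaining YF arrays, and results with hormone are therefore also given without it where that array decides a call. On 1 probe set Stat5a RNA itself differed between the mutants, with means of 5.10 and 4.57 in EA cells and 7.88 and 8.19 in YF cells without and with hormone. A second Stat5a probe set was low in all groups (means of 2.385 to 2.468). Which part of the gene or of the introduced construct each of them reads was not analysed here. The growth hormone receptor gene Ghr was lower in EA cells on its 3 probe sets, by -0.27, -0.37 and -0.95 averaged over treatments (limma adjusted p of 0.0042, 0.011 and 0.015). The part of this difference in the hormone comparisons was not tested.

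Fibroblast markers were present in all groups, with a mean log2 level over 12 markers of 11.5 to 11.7 in EA arrays and 12.4 to 12.6 in YF arrays. Of these markers 6 were lower in EA cells averaged over treatments, with differences of -4.96 for Thy1 (means of 7.64 in EA and 12.68 in YF cells without hormone) and -4.45 for Dcn, which was low in EA cells. Lum was low in all groups. Over 6 smooth muscle markers the mean was 7.67 to 7.92 in EA arrays and 9.35 to 9.66 in YF arrays, with Acta2, Myh11 and Cnn1 lower in EA cells and Des low throughout. The largest smooth muscle difference averaged over treatments was -4.82. The mesothelial mean over 5 markers was 5.01 to 5.16 in EA arrays and 3.77 to 4.04 in YF arrays. Averaged over treatments, Msln (5.87) and Krt19 (5.20) were higher and Wt1 (-5.29) lower in EA cells, and Upk3b and Lrrn4 were low in all groups. The differences of Msln, Krt19 and Wt1 were larger in size than that of any member (-4.68 for Sfrp1). The epithelial mean over 6 markers was 3.56 to 3.71 in EA arrays and 2.57 to 2.82 in YF arrays, with Krt18 and Krt19 higher in EA cells and Epcam, Cdh1, Krt8, Krt18 and Krt14 low in all groups. The macrophage mean over 8 markers was 4.57 to 4.76 in EA arrays and 4.01 to 4.32 in YF arrays. Cd68 was higher in EA cells, while Ptprc, Adgre1, Lyz2, Itgam and Fcgr1 were low. Over 6 endothelial markers the mean was 3.06 to 3.18 in EA arrays and 3.31 to 3.44 in YF arrays, with Tek lower in EA cells and the other 5 low throughout. These differences moved with the mutant beside every result below, and their part in the Wnt results was not tested. In RNA from whole cultures, fewer cells of a type and less RNA per cell cannot be told apart.

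The main comparison asked how Wnt pathway genes differed between cells with the EA and the YF mutant. Wnt5b, Wnt5a, Wnt2 and Wnt9a, 5 of the Frizzled receptors, Lrp5, the antagonists Sfrp1, Sfrp2 and Frzb, and Rspo1 were lower in EA cells averaged over treatments, from 25.7-fold for Sfrp1 to 1.35-fold for Fzd7. Of the measured Frizzled receptors, Fzd6 was the one called higher in EA cells, by 1.77-fold. Testing was with limma over all 45037 probe sets, and a probe set is called where its Benjamini-Hochberg adjusted p was under 0.05. Averaged over treatments, 26 of the 87 member probe sets were lower in EA cells (29.9%) and 1 was higher (1.15%), where 8.38% of all probe sets were lower and 8.17% higher. Because the members were chosen with earlier results of these data known, these shares are a description and no independent support.

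Without hormone 24 member probe sets were lower in EA cells (27.6%) and 1 was higher, against 5.25% lower and 5.51% higher of all probe sets. With hormone the counts were again 24 lower and 1 higher, against 5.8% lower and 4.37% higher of all. Of these, 22 probe sets of 12 genes were called lower both without and with hormone. Counted by the brightest probe set of each gene, that is the one with the highest mean over the 8 arrays, 14 of 46 genes were lower and 1 higher averaged over treatments. No matching share over all probe sets or all genes was computed for the count in both treatments or for the count by gene. Those counts are therefore not compared with the whole array. The median log2 change of the member probe sets was 0.001 averaged over treatments, beside 0.021 for all probe sets. Of the 87, 48 were low in all groups, and none of those 48 was called. In 28 member probe sets all 4 EA arrays lay below all 4 YF arrays, and in 2 they all lay above, where 9.04% and 9.54% of all probe sets did so.

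**Figure D1:**
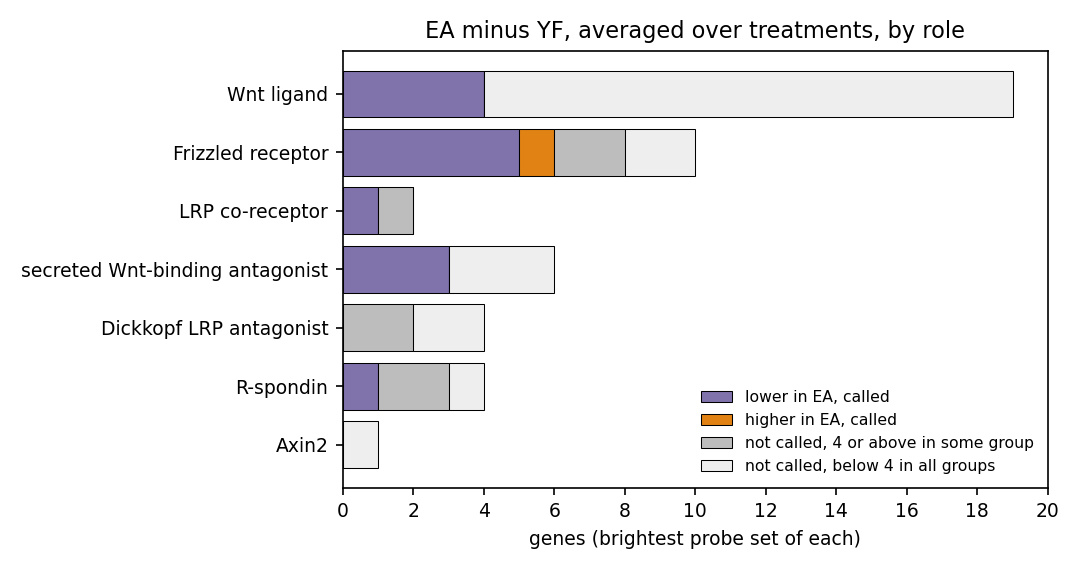
Bars give the number of member genes by role (horizontal axis, genes) for the average of EA minus YF over treatments, by the brightest probe set of each gene. Purple marks genes called lower in EA cells, orange higher, dark grey not called with a mean of 4 or above in some group, and light grey not called and below 4 in all groups. Lower calls appear among ligands (4 of 19), Frizzled receptors (5 of 10), LRP co-receptors (1 of 2), secreted Wnt-binding antagonists (3 of 6) and R-spondins (1 of 4). A matching share over all genes was not computed.

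The stretch of 250 bases before the annotated start was read from RefSeq's table for GRCm38.p6 for 30 of the 46 genes (33 windows, since some genes have several starts). The sequences shown are those of called members that hold a STAT motif (TTCNNNGAA, its own reverse complement) or a TCF/LEF motif (CTTTGA, on either strand), with the window of Sfrp2, the called member with the highest level, which holds neither. Capitals mark the motif matches, and each sequence runs 5′ to 3′ on the gene's own strand. The Frzb window (chr2:80447397-80447646, minus strand) holds a TCF/LEF match 95 bases and a STAT match 87 bases before the start. Of the Wnt5b windows (minus strand), chr6:119467212-119467461 holds a STAT match at 159 bases and chr6:119449387-119449636 a TCF/LEF match at 71 bases, while the last at chr6:119544348-119544597 holds neither. The Sfrp2 window is chr3:83766071-83766320 (plus strand).
Frzb: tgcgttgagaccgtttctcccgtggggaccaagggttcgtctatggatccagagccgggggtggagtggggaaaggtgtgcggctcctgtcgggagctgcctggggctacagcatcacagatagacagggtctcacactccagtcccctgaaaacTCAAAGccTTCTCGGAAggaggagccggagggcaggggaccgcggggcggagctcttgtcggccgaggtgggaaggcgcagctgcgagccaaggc
Wnt5b, STAT match: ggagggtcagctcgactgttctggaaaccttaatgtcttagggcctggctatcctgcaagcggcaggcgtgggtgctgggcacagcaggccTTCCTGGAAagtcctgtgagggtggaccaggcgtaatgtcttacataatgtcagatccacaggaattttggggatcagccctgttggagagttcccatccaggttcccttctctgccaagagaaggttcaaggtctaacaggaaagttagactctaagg
Wnt5b, TCF/LEF match: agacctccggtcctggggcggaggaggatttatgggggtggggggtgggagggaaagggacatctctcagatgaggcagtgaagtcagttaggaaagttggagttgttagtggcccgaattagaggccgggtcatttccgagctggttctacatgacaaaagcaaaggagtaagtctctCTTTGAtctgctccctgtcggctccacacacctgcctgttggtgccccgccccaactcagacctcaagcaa
Sfrp2: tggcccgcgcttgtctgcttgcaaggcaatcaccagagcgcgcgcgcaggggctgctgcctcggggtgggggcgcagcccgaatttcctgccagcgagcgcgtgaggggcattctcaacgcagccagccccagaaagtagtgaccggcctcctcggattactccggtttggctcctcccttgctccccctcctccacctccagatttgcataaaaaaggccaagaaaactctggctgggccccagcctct

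A STAT match was present in 7.02% of all 32851 windows in the table. It was in 2 of the 11 windows of members lower in EA cells and in 0 of the 22 windows of members not called. A TCF/LEF match was present in 13.8% of all windows, in 2 of the 11 and in 3 of the 22. The called genes without a window in the table or not read here were Sfrp1, Wnt5a, Fzd3, Fzd6, Fzd8, Lrp5 and Rspo3. A match is a description of letters in these windows, and binding was not measured.

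Single array values are given below as replicate 1 and replicate 2 of a group. Among the 19 Wnt ligand genes, 15 were low in all groups and 4 had a signal above 4 in every group. Wnt5b, a ligand mostly tied to the noncanonical branch, read 6.25 and 4.69 in EA cells without hormone, 6.14 and 6.18 in EA cells with hormone, 9.38 and 9.39 in YF cells without hormone and 9.77 and 9.34 in YF cells with hormone. All EA arrays lay below all YF arrays, and EA replicate 2 was the lowest. The log2 difference averaged over treatments was -3.65 (SE 0.35, limma adjusted p = 0.0025), with -3.91 without and -3.39 with hormone. A second Wnt5b probe set was low in EA cells (2.41 to 2.66) and at 6.08 to 7.29 in YF cells, a difference of -4.04 (SE 0.28) whose size is uncertain because the EA side is low. Both probe sets were thus lower in EA cells without and with hormone. Without replicate 1 of YF with hormone, the brighter Wnt5b probe set differed by -3.18 with hormone (limma adjusted p = 0.069) and by -3.54 on average (adjusted p = 0.01).

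Wnt5a, which signals through Ror and Frizzled receptors to cell polarity, read 9.69 and 9.46 in EA cells without hormone and 9.48 and 9.996 with hormone. YF cells were higher, at 11.17 and 11.33 without and 10.44 and 10.79 with hormone, and the arrays did not overlap. The difference was -1.68 without hormone (SE 0.21, limma adjusted p = 0.0096) and -0.88 with hormone, which did not pass (adjusted p = 0.068). Averaged over treatments it was -1.28 (SE 0.15, adjusted p = 0.0047). The other 2 Wnt5a probe sets above 4 were called in both treatments, with average differences of -1.74 and -2.24. A further Wnt5a probe set was low throughout.

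Wnt2, a ligand of the beta-catenin branch in lung and other mesenchyme, read 4.28 and 4.20 in EA cells without and 4.13 and 4.63 with hormone, against 5.72 and 5.71 in YF cells without and 5.81 and 5.59 with hormone. The EA arrays lay just above the low bound and all below the YF arrays. Its average difference was -1.40 (SE 0.12, limma adjusted p = 0.0018). Wnt9a, a ligand known from joint and skeletal development, read 11.24 and 11.35 in EA cells without and 10.65 and 10.64 with hormone. Its YF values were 11.56 and 11.79 without and 11.54 and 11.66 with hormone, so the EA arrays with hormone were the lowest of the 8. The difference passed with hormone (-0.95, SE 0.09, adjusted p = 0.0045) and not without (-0.38, adjusted p = 0.062), while the average was -0.67 (SE 0.06). The test of the change between treatments gave -0.57 (SE 0.13, adjusted p = 0.34).

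The 15 ligand genes low in all groups were Wnt1, Wnt2b, Wnt3, Wnt3a, Wnt4, Wnt6, Wnt7a, Wnt7b, Wnt8a, Wnt8b, Wnt9b, Wnt10a, Wnt10b, Wnt11 and Wnt16. Their brightest probe sets read between 1.75 and 2.98 on every array, and none was called in any comparison over all 8 arrays. Without replicate 1 of YF with hormone, Wnt4 passed for the average over treatments (-0.51, limma adjusted p = 0.045), on low values. The ligand genes include 4 pairs of neighbours in the RefSeq gene table, Wnt6 with Wnt10a, Wnt3a with Wnt9a, Wnt9b with Wnt3 and Wnt10b with Wnt1. Of these genes Wnt9a alone had a signal above 4, and its neighbour Wnt3a was low in all groups.

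**Figure D2:**
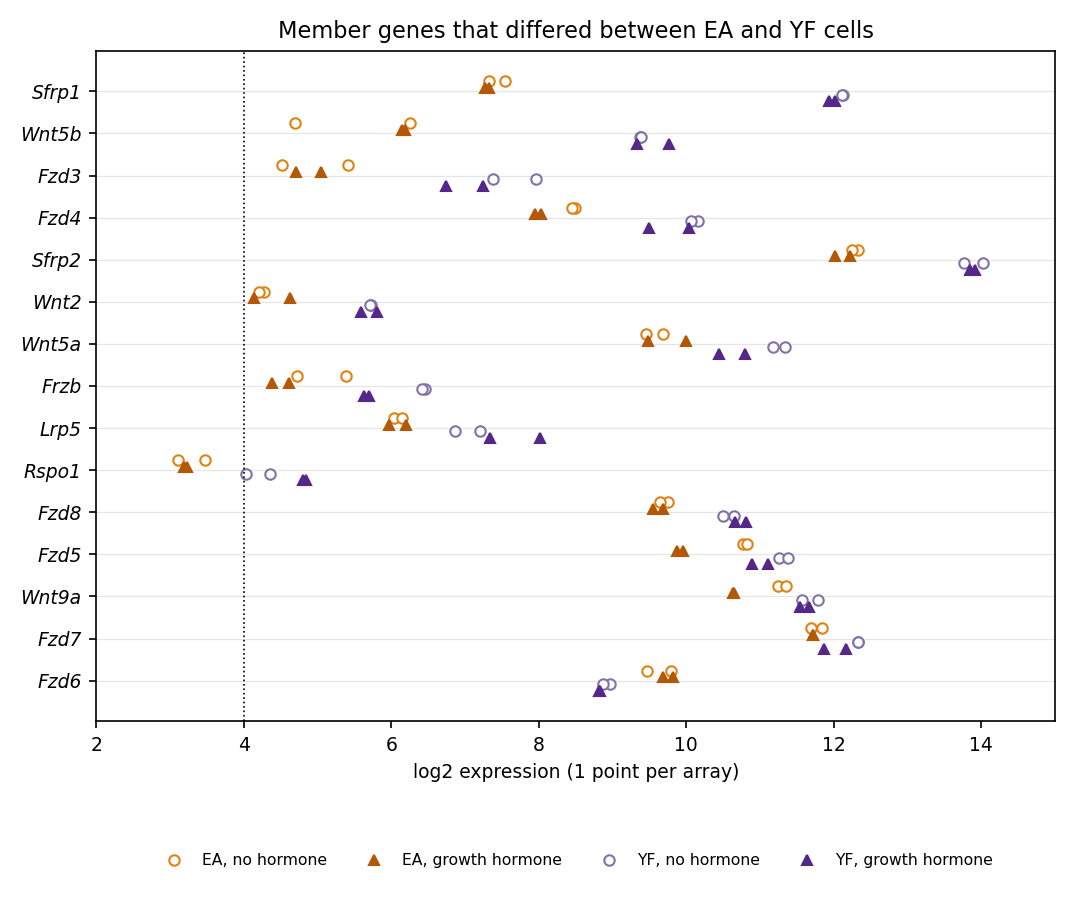
Each point is 1 array's log2 expression (horizontal axis) of the brightest probe set of a member gene called in the average of EA minus YF. Open circles are cells without hormone and triangles cells with growth hormone, orange for EA and purple for YF, and the dotted line marks a value of 4. In every gene drawn the 4 EA arrays and the 4 YF arrays do not overlap, with Fzd6 the one gene whose EA arrays lie to the right. Distances between points compare arrays within a gene.

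Of the 10 Frizzled genes, 8 had a signal above 4. Fzd3, a receptor known for axon guidance and planar polarity, read 5.41 and 4.52 in EA cells without and 5.04 and 4.70 with hormone. In YF cells it read 7.37 and 7.96 without and 6.75 and 7.25 with hormone, above every EA array. Its brightest probe set differed by -2.41 on average (SE 0.27, limma adjusted p = 0.0038). A further 3 Fzd3 probe sets were called in both treatments, with average differences of -1.88, -2.55 and -2.97, of which the last 2 had means below 4 in EA cells with hormone. Another one above 4 differed by -0.88 (SE 0.28, adjusted p = 0.11) and was not called, although its EA arrays (4.40 to 4.59) lay below its YF arrays (4.97 to 6.18). Without replicate 1 of YF with hormone, the difference of the brightest Fzd3 probe set with hormone was -2.38 and no longer passed (adjusted p = 0.063), while the other 3 stayed called. A further Fzd3 probe set was low in all groups, with EA arrays of 2.44 to 2.51 and YF arrays of 2.47 to 2.87. It passed without that array, at -0.39 with hormone (adjusted p = 0.024) and -0.21 on average (adjusted p = 0.021), against adjusted p values of 0.064 and 0.1 over all 8 arrays.

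Fzd4, which binds Norrin as well as Wnts, read 8.49 and 8.45 in EA cells without and 7.95 and 8.02 with hormone, against 10.16 and 10.06 in YF cells without and 9.49 and 10.03 with hormone. The EA arrays were lower by more than the spread within any group. The average difference was -1.71 (SE 0.12, limma adjusted p = 0.001), and a second probe set gave -2.08 (SE 0.17, adjusted p = 0.0014). Fzd8, a receptor of the beta-catenin branch, read 9.75 and 9.64 in EA cells without and 9.54 and 9.69 with hormone. Its YF arrays were all higher, at 10.65 and 10.50 without and 10.65 and 10.81 with hormone. The average differences of its 2 probe sets were -0.998 (SE 0.07, adjusted p = 0.00076) and -1.70 (SE 0.15, adjusted p = 0.0018).

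Fzd5, a further receptor of the beta-catenin branch, read 10.77 and 10.83 in EA cells without and 9.96 and 9.87 with hormone, and 11.26 and 11.37 in YF cells without and 10.89 and 11.11 with hormone. The EA arrays with hormone were the lowest. The difference was -0.52 without hormone (SE 0.09, limma adjusted p = 0.021) and -1.09 with hormone (adjusted p = 0.0027), and the test of the change between treatments did not pass (-0.56, SE 0.12, adjusted p = 0.34). Fzd7, a receptor linked to stem cell and mesenchymal growth, read 11.84 and 11.68 in EA cells without, 11.72 and 11.71 with hormone, 12.33 and 12.33 in YF cells without and 11.87 and 12.16 with hormone. The gap between the highest EA array and the lowest YF array was small. Its average difference of -0.43 (SE 0.08, adjusted p = 0.017) was the smallest called among members, and it missed the threshold in 5 of 15 alternatives. Without hormone the difference was -0.57 (adjusted p = 0.032) and with hormone -0.30 (adjusted p = 0.18). With replicate 1 of YF with hormone left out, the difference with hormone was -0.45 and passed (adjusted p = 0.047).

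Fzd6, a receptor known for planar polarity in skin and hair, went the other way. It read 9.80 and 9.47 in EA cells without and 9.69 and 9.83 with hormone, against 8.96 and 8.87 in YF cells without and 8.83 and 8.82 with hormone. All EA arrays were above all YF arrays. The differences were 0.72 without hormone (SE 0.12, limma adjusted p = 0.02) and 0.93 with hormone (adjusted p = 0.0096), and the average was 0.83 (SE 0.08, adjusted p = 0.0027). The other 2 Fzd6 probe sets were low.

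Fzd1 and Fzd2 were not called. Fzd1 read 12.34 to 12.74 over the 8 arrays on its brightest probe set with an average difference of -0.01 (95% interval -0.12 to 0.11). This average joins opposite signs, at 0.157 without hormone (limma adjusted p = 0.27) and -0.169 with hormone (adjusted p = 0.22). The Fzd1 change with hormone in EA cells was -0.377 (adjusted p = 0.26), and the difference of responses was -0.325 (adjusted p = 0.44). Fzd2 differed by 0.06 on average (95% interval -0.11 to 0.23) on its brightest probe set. The other 2 Fzd2 probe sets above 4 varied more between arrays, from 5.38 to 7.55 and from 2.76 to 7.08. Over both treatments their EA and YF arrays overlapped, with average differences of 0.80 and 0.38. Without hormone both EA arrays lay above both YF arrays, with differences of 1.60 (limma adjusted p = 0.12) and 1.83 (adjusted p = 0.7). With hormone the differences were -0.003 and -1.07, and none of these was called. Fzd9 and Fzd10 were low in all groups, between 2.02 and 2.51 on their brightest probe sets.

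Of the co-receptors, Lrp5 read 6.03 and 6.15 in EA cells without and 5.97 and 6.19 with hormone, and 7.21 and 6.87 in YF cells without and 8.01 and 7.34 with hormone. The YF arrays were all higher, and replicate 1 of YF with hormone was the highest. The difference was -1.59 with hormone (SE 0.25, limma adjusted p = 0.019), -0.94 without hormone (adjusted p = 0.083) and -1.27 on average (SE 0.17, adjusted p = 0.0079). Without replicate 1 of YF with hormone these were -1.25 with hormone (adjusted p = 0.031) and -1.10 on average (adjusted p = 0.0077). Lrp6, the closely related co-receptor, had an average difference of 0.11 (95% interval -0.01 to 0.24) on its brightest probe set at values of 12.32 to 12.59, and was not called over all 8 arrays. Without that array the average was 0.16 and passed (adjusted p = 0.0498). The dimmer Lrp6 probe set read 7.70 and 7.69 in EA cells without hormone, 7.16 and 6.76 in EA cells with hormone, 6.91 and 6.92 in YF cells without hormone and 7.67 and 7.22 in YF cells with hormone. Its EA arrays were higher without hormone and lower with hormone. The differences were 0.78 without hormone (SE 0.19, adjusted p = 0.067) and -0.485 with hormone (adjusted p = 0.22), the difference of hormone responses was -1.26 (SE 0.27, adjusted p = 0.33), and none of these was called.

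**Figure D3:**
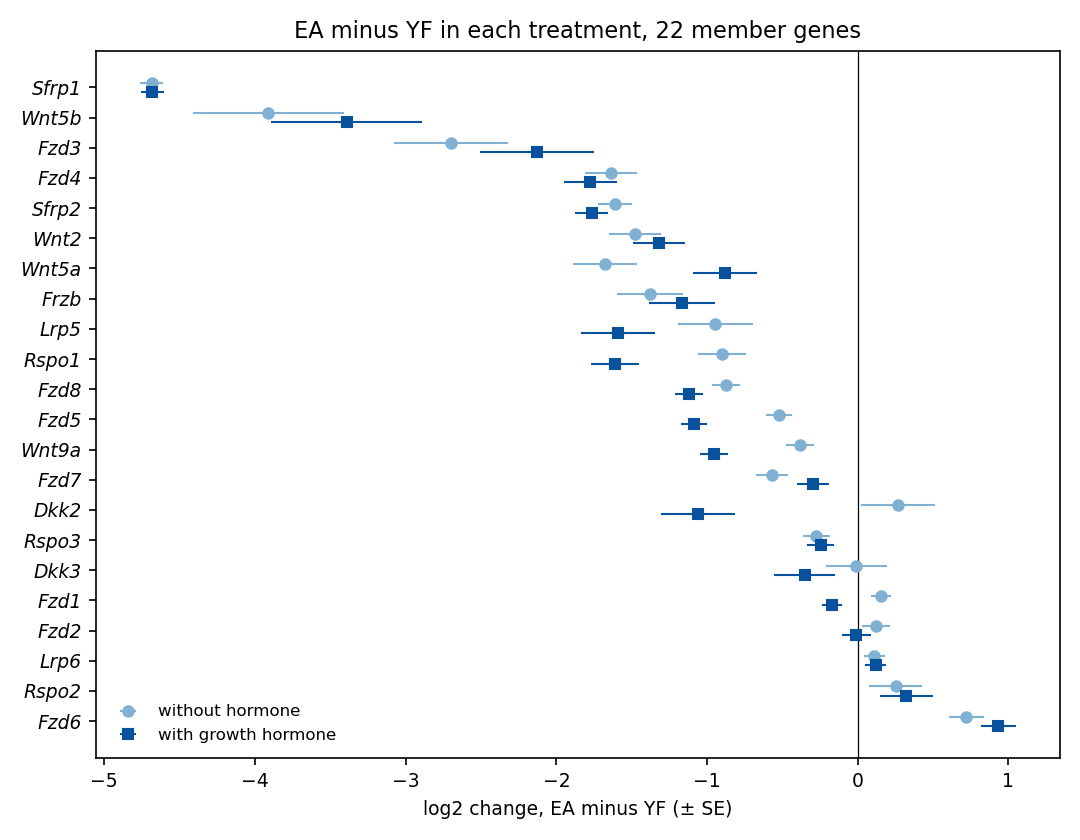
Log2 difference of EA minus YF (horizontal axis, with the moderated standard error as bars) of the brightest probe set of the 22 member genes with a mean of 4 or above in some group. Light circles are cells without hormone and dark squares cells with growth hormone. Sfrp1 stands at -4.68 in both, most genes lie to the left of 0, and Fzd6 lies to the right.

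Among the secreted Wnt-binding antagonists, Sfrp1 differed most of all members. It read 7.33 and 7.54 in EA cells without hormone, 7.32 and 7.27 in EA cells with hormone, 12.12 and 12.12 in YF cells without hormone and 11.93 and 12.02 in YF cells with hormone. The gap between EA and YF arrays was wide beside the spread within each group. The difference was -4.68 in each treatment (SE 0.08, limma adjusted p = 3.3e-05 without and 3.6e-05 with hormone), and averaged over treatments it was 25.7-fold (SE 0.05 on the log2 scale, adjusted p = 5.3e-06). A further 3 Sfrp1 probe sets were called in both treatments, at average differences of -2.91, -2.85 and -3.01, and all 3 had a mean below 4 in EA cells without hormone. The other one was low in all groups.

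Sfrp2, which like Sfrp1 carries a Frizzled-type cysteine-rich domain, read 12.33 and 12.24 in EA cells without and 12.01 and 12.22 with hormone, and 13.77 and 14.02 in YF cells without and 13.92 and 13.84 with hormone. It stayed high in both mutants, with every EA array below every YF array. Its average difference was -1.69 (SE 0.08, limma adjusted p = 0.00027). Frzb, a frizzled-related antagonist named for its role in cartilage, read 5.39 and 4.73 in EA cells without and 4.62 and 4.38 with hormone, and 6.45 and 6.41 in YF cells without and 5.62 and 5.70 with hormone. The YF arrays were all higher, by the least between EA replicate 1 and the YF arrays with hormone. The difference was -1.38 without hormone (SE 0.22, adjusted p = 0.019) and -1.16 with hormone (adjusted p = 0.034), and the average was -1.27 (SE 0.16, adjusted p = 0.0053). Without replicate 1 of YF with hormone, the difference with hormone was -1.20 and did not pass (adjusted p = 0.11), and the average was -1.29 (adjusted p = 0.018).

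Wif1, Sfrp4 and Sfrp5 were low. Wif1, a Wnt-binding inhibitor, lay between 2.56 and 2.71 on the 8 arrays, which overlapped between mutants. Sfrp4 read 2.64 to 4.18 in EA arrays and 2.31 to 2.40 in YF arrays, with EA replicate 2 the highest. Its average difference of 0.91 (SE 0.31) did not pass (limma adjusted p = 0.13).

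None of the 4 Dickkopf genes was called over all 8 arrays. Dkk3, a divergent member of the family, read 7.95 to 8.66 in EA arrays and 8.42 to 8.70 in YF arrays on its brightest probe set, with an average difference of -0.18 (95% interval -0.54 to 0.18). Dkk2, an LRP-binding antagonist, read 5.90 and 5.68 in EA cells without and 4.50 and 4.63 with hormone, and 5.53 and 5.52 in YF cells without and 6.00 and 5.25 with hormone. The EA arrays with hormone were the lowest and the EA arrays without hormone overlapped the YF arrays. With hormone its difference was -1.06 (SE 0.24, limma adjusted p = 0.06). Without replicate 1 of YF with hormone, Dkk2 passed at -0.69 with hormone (adjusted p = 0.041), and the dimmer Dkk3 probe set passed at -0.78 with hormone (adjusted p = 0.026) and -0.37 on average (adjusted p = 0.032). Dkk1 and Dkk4 were low in all groups, between 2.07 and 2.64 on their brightest probe sets.

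The R-spondin Rspo1 was low in EA cells, at 3.48 and 3.11 without and 3.18 and 3.23 with hormone, and read 4.03 and 4.36 in YF cells without and 4.80 and 4.84 with hormone. All EA arrays were below all YF arrays. Its average difference was -1.26 (SE 0.11, limma adjusted p = 0.0019), of uncertain size because the EA side is low. The 2 probe sets of Rspo3, a strong enhancer of Wnt signalling, both read lower on every EA array but differed in size and in call. The brighter one read 12.23 to 12.43 in EA arrays and 12.51 to 12.70 in YF arrays, a difference of -0.26 (SE 0.07) that did not pass (adjusted p = 0.055). The dimmer one read 4.20 to 5.15 in EA arrays and 6.74 to 7.53 in YF arrays and was called (-2.42, SE 0.18, adjusted p = 0.0012). Rspo2 read 11.56 to 12.56 over the 8 arrays with an average difference of 0.29 (95% interval -0.03 to 0.60), and Rspo4 was low in all groups.

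**Figure D4:**
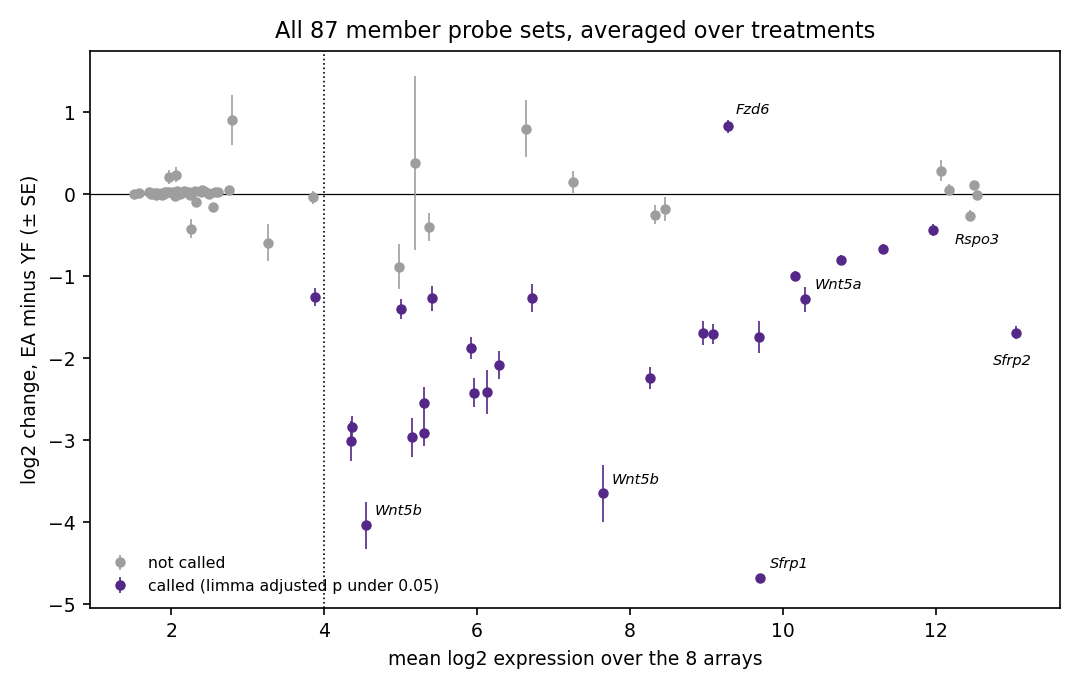
Average log2 difference of EA minus YF (vertical axis, with the moderated standard error as bars) against mean log2 expression over the 8 arrays (horizontal axis) for all 87 member probe sets. Purple points were called by limma and grey points were not, and the dotted line marks a mean of 4. The grey points left of the line gather near 0, and 26 of the 27 called points lie below 0.

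The probe sets of a gene mostly pointed the same way. For 6 genes, Fzd3, Fzd4, Fzd8, Sfrp1, Wnt5a and Wnt5b, 2 or more probe sets were called, all lower in EA cells. The 16 genes with any called probe set had 12 other probe sets that were not called, of which 10 were low in all groups. The other 2 were those of Fzd3 and Rspo3 described above.

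Each difference within a treatment rests on 2 arrays against 2, and single arrays decided several of those calls. The direction is less open to such a check, since leaving out an array cannot turn it where EA and YF arrays do not overlap. Some alternative ended 11 of the 25 calls without hormone and 12 of the 25 with hormone, while every difference kept its direction. Without hormone, the brightest probe sets of Wnt5b (-4.69 to -3.13 over the alternatives, limma adjusted p up to 0.068), Frzb (-1.71 to -1.05, up to 0.095) and Fzd6 (0.56 to 0.88, up to 0.1) lost the call without YF replicate 1 and without YF replicate 2. Those of Fzd3 (-3.14 to -2.26, up to 0.067) and Wnt5a (-1.79 to -1.56, up to 0.058) lost it without YF replicate 2, and Wnt5a also without EA replicate 2. Fzd5 (-0.58 to -0.46, up to 0.11) and Fzd7 (-0.65 to -0.49, up to 0.14) lost it when any 1 of the 4 arrays without hormone was left out, and Fzd7 also when 1 EA array with hormone was. Fzd5 lost it too when each array was centred on its median (-0.50, adjusted p = 0.051). Rspo1 (-1.09 to -0.71, up to 0.12) lost it without replicate 2 of EA, replicate 2 of YF or 1 of the EA arrays with hormone.

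With hormone, the calls of Wnt5b (-3.61 to -3.18, limma adjusted p up to 0.095), Lrp5 (-1.93 to -1.25, up to 0.085), Fzd3 (-2.38 to -1.88, up to 0.15) and the dimmer Rspo3 probe set (-2.22 to -1.62, up to 0.075) were lost when 1 EA array with hormone, whichever it was, was left out. Fzd3 lost it also when 1 YF array with hormone was left out. Fzd6 (0.866 to 1.002, up to 0.065) lost it without replicate 2 of EA with hormone, and Frzb (-1.28 to -1.02, up to 0.17) without any 1 of 6 arrays, the exceptions being the EA arrays without hormone. Fitting only the 4 arrays compared ended 5 calls without hormone (the brightest probe sets of Wnt5b, Frzb, Fzd3, Fzd6 and Rspo1) and 3 with hormone (Lrp5, Wnt2 and a dimmer Wnt5a probe set), with limma adjusted p values of 0.066 to 0.12. Sfrp1, Sfrp2 and Fzd4 on their brightest probe sets passed in every alternative in both treatments, as did the brighter Fzd8 probe set.

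Axin2, a feedback inhibitor and a widely used target of beta-catenin signalling, was low in all groups. Its brightest probe set read 3.66 and 3.53 in EA cells without and 2.46 and 2.22 with hormone, and 2.85 and 3.79 in YF cells without and 3.64 and 3.95 with hormone. The EA arrays with hormone were the lowest, and the other groups overlapped. With hormone the difference between mutants was -1.46 (SE 0.32, limma adjusted p = 0.052), without hormone it was 0.27 (adjusted p = 0.85), and neither passed.

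The hormone comparisons asked whether 120 minutes of growth hormone altered these genes. No member probe set was called by limma for the response in EA cells, the response in YF cells, the difference of the responses or the average response, where 0.135%, 0.18%, 0.02% and 0.211% of all probe sets were called. At an unadjusted p under 0.05 there were 11 of the 87 member probe sets in EA cells, 10 in YF cells, 11 for the difference of responses and 12 for the average. Of all probe sets, 5.62%, 11.4%, 9.74% and 7.85% had such a p in the same comparisons.

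The lowest adjusted p in EA cells belonged to Fzd5, whose arrays are given above. The log2 change with hormone was -0.88 in EA cells (SE 0.09, limma adjusted p = 0.062) and -0.32 in YF cells (SE 0.09, adjusted p = 0.3), and the average was -0.60 (SE 0.06, adjusted p = 0.055). With limma's trend and robust options the EA change passed (adjusted p = 0.016), as did the average (adjusted p = 0.018), and without YF with hormone replicate 2 the average was -0.65 (adjusted p = 0.032). Without YF with hormone replicate 1 the average was -0.55 (adjusted p = 0.071). In both mutants the 2 arrays with hormone lay below the 2 without.

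Wnt9a differed with hormone by -0.65 in EA cells (SE 0.09, limma adjusted p = 0.17) and by -0.08 in YF cells, and Dkk2 by -1.23 in EA cells (SE 0.24, adjusted p = 0.35) and by 0.10 in YF cells. The Dkk2 difference of responses was -1.33 (SE 0.35, adjusted p = 0.41), and it passed without YF with hormone replicate 2 (-1.70, adjusted p = 0.045). That fit leaves, as the only YF array with hormone, the one that stood apart on principal components, and assumes that it varies like the other groups. With that array left out instead, the Dkk2 difference of responses was -0.95 (adjusted p = 0.25) and the YF change -0.27 (adjusted p = 0.74). Frzb was -0.56 in EA cells (limma adjusted p = 0.87) and -0.77 in YF cells (adjusted p = 0.32), and its average was -0.67 (SE 0.16, adjusted p = 0.3). In both mutants its 2 arrays with hormone lay below the 2 without. The Frzb YF change and average were the lowest among the brightest probe sets of the 46 genes. Fzd4 was -0.49 in EA cells and -0.35 in YF cells. Its YF change was -0.62 (adjusted p = 0.044) without YF with hormone replicate 2 and -0.08 (adjusted p = 0.95) without replicate 1, and the average was -0.55 (adjusted p = 0.034) and -0.28 (adjusted p = 0.17). None of these passed over all 8 arrays. For Axin2 the change was -1.26 in EA cells (SE 0.32, adjusted p = 0.5) and 0.47 in YF cells, and the difference of responses was -1.73 (SE 0.45, adjusted p = 0.41), all on low values.

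For Sfrp1, the member with the widest mutant difference, the change with hormone was -0.14 in each mutant, with 95% intervals of -0.33 to 0.06 in EA cells and -0.34 to 0.05 in YF cells. For Sfrp2 the interval was -0.45 to 0.11 in EA cells and -0.30 to 0.27 in YF cells. For Wnt5b it was wide, at -0.58 to 1.96 in EA cells and -1.10 to 1.44 in YF cells.

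**Figure D5:**
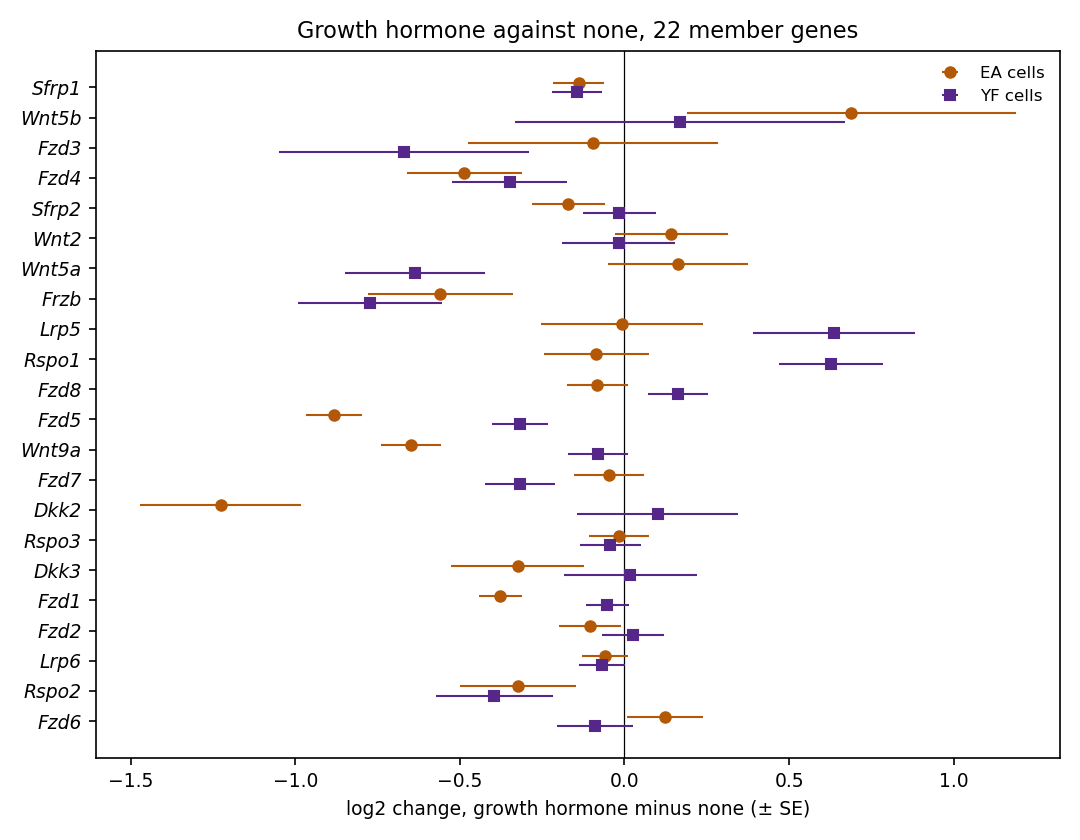
Log2 change with growth hormone against none (horizontal axis, with the moderated standard error as bars) of the brightest probe set of the 22 member genes with a mean of 4 or above in some group. Circles are EA cells and squares YF cells. None of the points was called by limma over all 8 arrays, and those farthest to the left are Dkk2 (-1.23) and Fzd5 (-0.88) in EA cells.

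The rest of the Wnt pathway was described by 6 lists with 125 genes, of which 121 were measured. By the brightest probe set of each gene, 24 were lower (19.8%) and 18 higher (14.9%) in EA cells averaged over treatments, beside the 8.38% and 8.17% of all probe sets, and their median change was 0.001. Here and below, the lists and all probe sets are not like for like. The lists take the brightest probe set of each gene, while 53.4% of all probe sets were low in all groups. A share over the brightest probe sets of all genes was not computed, so no enrichment can be read from these counts. Without hormone 19 of the 121 genes were lower and 13 higher, and with hormone 18 lower and 5 higher. No gene of the lists was called in a hormone comparison (19 of 121 in EA cells and 20 in YF cells had an unadjusted p under 0.05, beside the 5.62% and 11.4% of all probe sets).

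Among 20 genes of Wnt secretion and extracellular modification, 5 were higher and 3 lower in EA cells. Rnf43, an E3 ligase that removes Frizzled from the membrane, was higher by 2.70 on average (SE 0.30, limma adjusted p = 0.0039). Its YF means were 4.17 without and 6.09 with hormone, against 7.91 and 7.74 in EA cells. The Rnf43 difference was called without hormone (3.74) and was not called with hormone (1.65). Its YF change with hormone (1.92) and its difference of responses (-2.09) were not called. Tinagl1 was higher by 1.13, and Kremen1, a Dickkopf receptor, by 0.72. Igfbp4 was lower by 0.93 and the glypican Gpc6 by 0.79, and Wls, which carries Wnts to the cell surface, was higher by 0.27. Of 11 other Wnt receptors, 3 were lower and 2 (Ptk7 and Adgra2) higher, with no change in this list above 0.60. Ror2, a Wnt5a receptor, differed by -0.92 (SE 0.09, adjusted p = 0.0024) and Ror1 by -1.39, while Lgr6, an R-spondin receptor, differed by -2.22 (SE 0.19, adjusted p = 0.0016).

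Of 19 genes of planar polarity and the noncanonical branch, 6 were lower and 2 higher in EA cells. Vangl2 differed by -1.26, Prickle1 by -1.18, Daam2 by -1.16 and the kinase Mapk8 by -1.14, and Nfatc2 by 1.30. Of 30 genes of the destruction complex and cytoplasmic signalling, 4 were higher and 2 lower. Nkd2, which binds Dishevelled and restrains signalling, differed by -2.75 with low means in EA cells, and the other 5 differed by 0.60 or less. Of 19 nuclear effectors, 4 were higher (Tcf7l1, Bcl9, Bcl9l and Tle2) and 2 lower (Pygo1 and Hdac1). Among the higher ones, Tle2, a co-repressor, was at 1.53, Bcl9l, a beta-catenin partner, at 1.25, and Tcf7l1 at 0.56. The lowest change of any gene in this list, called or not, was -1.23.

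Of 29 genes known as targets of beta-catenin signalling in other settings, 8 were lower and 2 higher in EA cells, with a list median of -0.086 beside 0.021 for all probe sets. Id2, an inhibitor of basic helix-loop-helix factors, differed by -2.01 (SE 0.15, limma adjusted p = 0.0011) and the growth factor Bmp4 by -1.60 (SE 0.06, adjusted p = 0.00012). Tbx3 differed by -1.58, and Ccn2, which also responds to other pathways, by -1.19. Rnf43 and Sox9 were the 2 that were higher, by 2.70 and 0.46, and both were called without hormone but not with hormone.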

How the data were processed

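RNA had been extracted with TRIzol from each culture and biotin-labelled for Affymetrix arrays, per the labels' protocols. The deposited table holds log2 expression values per probe set, with a column for each of the 8 arrays. They were made with GCOS, Affymetrix's scanner software, and RMA (robust multi-array average), per the submitters' processing notes, with versions and settings not given in the sources used here, so the background step and its effect on low values cannot be checked. The number of arrays limits the precision, and no detection calls were used. The values were not normalized further, since another scaling moved the median change of all probe sets by under 0.1 in each comparison.

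Of 45101 probe sets, 64 controls were left out. Gene symbols came from the platform annotation, where 932 probe sets had several symbols and 9160 had none, and these were given no name. The gene IDs of all 87 member probe sets were found in the RefSeq gene table, which was used for names and neighbours. Groups and replicate numbers came from the titles. Differences were tested with limma 3.58.1 in R 4.3.3 (lmFit and eBayes, 4 group means over 8 arrays, 4 residual and 1.26 prior degrees of freedom), two-sided, in 7 contrasts, with Benjamini-Hochberg adjustment over all 45037 probe sets within a contrast and a threshold of 0.05. Every adjusted p comes from this model unless an alternative is named, and every difference is the first-named group minus the second. The code was tested on simulated data. No label says that a replicate number is shared between groups, so the main model did not pair arrays. Correlations of replicate deviations ran from -0.303 (EA and YF with hormone) to 0.367 (EA with hormone and YF with hormone). A shared batch between some groups is therefore not excluded.

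The members and lists were chosen with earlier results of these data known. Every member is accounted for, with array values for genes called in any contrast and for Frzb, Wif1 and Axin2. Of each pathway list, up to 6 called genes were given values. Alternatives were a second quantile normalization, centring, a filter on low values, limma's trend and robust options, only the groups compared, the replicate number as a block, control probe sets kept and each array left out.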

Additional observations from a re-analysis of the deposited data

How the results depend on the processing

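Across the alternatives no called member difference between EA and YF turned its direction. Where EA and YF arrays do not overlap, leaving out an array cannot turn it, so the kept direction is no separate support. For the average over treatments 26 of 27 called probe sets passed in all 15 alternatives, and Fzd7 was lost in 5. In single treatments 14 of 25 calls without hormone and 13 of 25 with hormone passed in all 16. Leaving out 1 array at a time gave 15 to 28 called member probe sets without hormone, 14 to 26 with hormone and 26 to 31 for the average. The lowest count without hormone (15) left out YF replicate 2 and that with hormone (14) left out replicate 2 of EA with hormone, where fewer arrays enter the fit. In the hormone comparisons, the trend and robust options called 1 member probe set in EA cells and 1 for the average response, both Fzd5. Leaving out 1 array gave 0 in EA cells, 0 to 1 in YF cells, 0 to 1 for the difference of responses and 0 to 2 for the average response. With the replicate number as a block, 24 member probe sets were called without hormone, 24 with hormone, 27 for the average over treatments and 0 for each hormone comparison. The block ended the calls of Rspo1 (-0.90, limma adjusted p = 0.055) and Fzd7 (-0.57, adjusted p = 0.063) without hormone and of the brightest Fzd3 probe set with hormone (-2.13, adjusted p = 0.059). With the EA numbers crossed, an alternative chosen after seeing the data, the counts were 26, 26, 27 and 0. Low signal limits what can be said of the 48 member probe sets below 4 in all groups. The average over treatments needs all groups, so it was not run with only the groups compared.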
